A study of Homo sapiens with 12 samples.

Results

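The mRNA levels of genes that the transcription factor ATF4 is known to drive were followed in 3 hepatocellular carcinoma (HCC) cell lines treated with an mTOR inhibitor, an SHP2 inhibitor or both. The genes were a list of 38 that encode enzymes of amino acid synthesis, amino acid carriers, tRNA synthetases, the tRNA export receptor and stress regulators, named by symbol. Of these, 37 of the 11548 genes in the expression table were found and ALDH1L2 was not among them, so 37 members were analysed. Hep3B, MHCC97H and Huh7 cells, all labelled WT, were left untreated (UT) or treated with AZD8055, an inhibitor of the mTOR kinase, with compound #57, an allosteric inhibitor of the phosphatase SHP2, or with both. AZD8055 was used at 100 nM and compound #57 at 5 µM in the combination, while its dose as a single agent was not given in the sources used here. MHCC97H cells were exposed for 24 h and the other lines for 48 h, so an effect of exposure time and one of the line itself cannot be told apart. There was 1 RNA sequencing library for each treatment in each cell line, 12 in all, and each line is a single established culture, not a panel of tumours.

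ATF4 is a basic leucine zipper factor whose mRNA is held back from translation by upstream open reading frames and is translated when eIF2 is phosphorylated, as in amino acid shortage or endoplasmic reticulum stress. mTORC1, the complex through which mTOR senses amino acids and growth factors, also raises ATF4 protein, so its targets are read as an output of both pathways. With a C/EBP partner, ATF4 binds a composite element (CARE, the C/EBP-ATF response element) in promoters of genes for serine and asparagine synthesis, amino acid uptake and tRNA charging. A tumour cell draws on the same genes to make protein, nucleotides and glutathione.

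The promoters of the members were searched first, because a shared element is what the list is known for. RefSeq promoter windows of 300 bases (250 before and 50 after the annotated start, GRCh38.p14) were matched for 31 of the 37 members, and LARS, PSPH, PYCR1, SHMT2, SLC7A11 and YARS had no match. The motif TGATGNAA was searched on both strands, its other strand reading TTNCATCA, and no overlap with another motif was scored. It was found in 11 of 31 member promoters (35.5%), in 132 of 8714 promoters of genes in the expression table (1.5%) and in 3.6% of 35116 windows of the whole reference. When only the bases before the start were searched, 6 of the 31 members (19.4%) and 1.3% of the genes in the table held it. By role, the motif lay in 6 of 11 windows of the tRNA group, in 2 of 3 of the asparagine, proline and branched-chain enzymes and in 0 of 5 regulators. For members and genes in the table only the first window listed for a gene was used, so its other start sites were not searched. The whole reference kept every window. A match is a description of letters in this window, not a bound site.

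The stretches below show how alike the 11 matches are, with the 8 matching bases in capitals, 5′ to 3′ on the strand of the gene.
AARS, chr16:70289675-70289704, minus strand: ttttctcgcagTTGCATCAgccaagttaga
ASNS, chr7:97872458-97872487, minus strand: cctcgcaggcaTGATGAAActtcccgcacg
BCAT1, chr12:24949131-24949160, minus strand: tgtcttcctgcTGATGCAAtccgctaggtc
CARS, chr11:3057407-3057436, minus strand: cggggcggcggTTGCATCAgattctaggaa
CHAC1, chr15:40953251-40953280, plus strand: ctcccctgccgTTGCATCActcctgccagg
IARS, chr9:92293692-92293721, minus strand: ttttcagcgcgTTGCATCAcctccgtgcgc
MARS, chr12:57488053-57488082, plus strand: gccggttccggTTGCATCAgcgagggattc
MTHFD1L, chr6:150866346-150866375, plus strand: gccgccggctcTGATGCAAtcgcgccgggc
NARS, chr18:57621804-57621833, minus strand: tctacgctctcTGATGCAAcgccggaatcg
SLC3A2, chr11:62881725-62881748, plus strand: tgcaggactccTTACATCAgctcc
TARS, chr5:33440956-33440985, plus strand: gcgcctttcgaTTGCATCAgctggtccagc
Of these 11 elements, 7 read TTGCATCA or TTACATCA on the strand of the gene, the remaining ones TGATGCAA or TGATGAAA. In AARS, CHAC1 and MTHFD1L the match began 187, 209 and 129 bases before the start site. In IARS, CARS and MARS it began 13, 2 and 4 bases before the start, and in TARS, NARS and SLC3A2 it lay 3, 15 and 38 bases into the transcript. The ASNS match, 68 bases before the start, reads TGATGAAA, and that of BCAT1 lay 48 bases before the start. Distances are from the RefSeq start, and all of the stretches but that of BCAT1 lie inside the genes as GENCODE bounds them.

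The libraries held 10659951 to 15957252 reads, and the deposited values could be turned back into whole reads, so levels are given as RPM, the reads of a gene scaled to the same total in each library. These are not divided by transcript length, so levels are compared between libraries and not between genes. The 9 hepatocyte and HCC markers checked summed to 23682 to 55648 RPM in Hep3B, 35754 to 49183 in Huh7 and 5239 to 6128 in MHCC97H. In MHCC97H the keratins KRT8 (3562 to 4274) and KRT18 (1380.4 to 1724) made up most of that sum, and the secreted liver proteins were low or near 0, with ALB at 14.2 to 73.2 RPM, AFP at 4.14 to 7.81, SERPINA1 at 1.05 to 1.69, APOA1 at 0.28 to 0.81 and TTR at 0 to 0.21. Of the other markers, APOB stood at 16.7 to 35.2 RPM in MHCC97H and the transcription factor HNF4A at 59.5 to 165. HNF4A was at 208 to 319 RPM in Hep3B and 303 to 432 in Huh7. None of PTPRC, CD3E and CD14, which mark leukocytes, was among the genes of the table. The 3 fibroblast markers summed to 1.0 to 212 RPM and the endothelial marker PECAM1 stood at 0.43 to 54.2 RPM, and their part in the results was not tested. In bulk RNA, fewer cells that express a gene and less of its mRNA per cell cannot be told apart. The 37 members together took 0.65%, 0.687% and 0.671% of the reads in untreated Hep3B, MHCC97H and Huh7. With AZD8055 the share was 0.519%, 0.426% and 0.359%, with compound #57 it was 0.55%, 0.764% and 0.563%, and with the combination it was 0.399%, 0.457% and 0.328%. The share was thus lowest under AZD8055 or the combination in every line, and higher than in untreated cells only under compound #57 in MHCC97H.

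With AZD8055, most members had lower mRNA than in untreated cells of the same line, least in Hep3B. The median member changed least in Hep3B, at -0.24 on the log2 scale (31 of 37 lower), while Huh7 stood at -0.85 (36 of 37 lower) and MHCC97H at -0.88 (33 of 35). For all genes the medians were 0.02, -0.02 and 0.06 in the same order. In all 3 lines together, 27 of 37 members were lower and 0 were higher in each, where 25.7% of all genes were lower and 28.4% higher in each. With the combination the medians of Hep3B, Huh7 and MHCC97H were -0.55, -0.99 and -0.995 (all genes 0.06, 0.04 and 0.09), and 25 members were lower and 1 higher in all 3 lines, as were 25.6% and 33.4% of all genes. MTHFD2 and PYCR1 were left out of the medians of MHCC97H, where each had between 0 and 2 reads per library. The heat map of changes by line shows the block of lower values under AZD8055 and the combination, with compound #57 mixed.

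**Figure D1:**
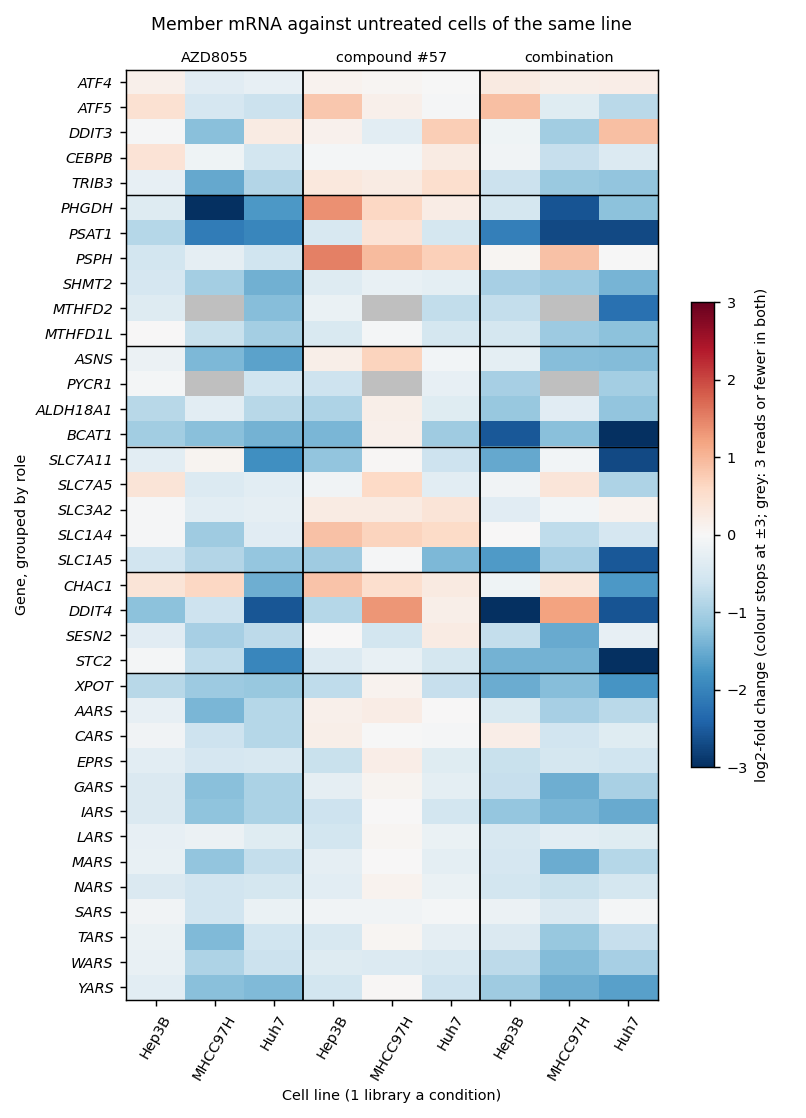
Log2-fold change against untreated cells of the same line for 37 members (rows, grouped by role, lines between roles), under AZD8055, compound #57 and the combination (3 columns each, 1 library a condition, colour scale stopping at ±3). Most cells under AZD8055 and the combination are blue (lower), those of Hep3B under AZD8055 are the palest, and the grey cells are MTHFD2 and PYCR1 in MHCC97H, which had 3 reads or fewer.

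With 1 library per condition, changes shared by the lines were tested first, in a limma model of treatment and cell line over all 11548 genes (called at a Benjamini-Hochberg adjusted p under 0.05). For AZD8055 against untreated, 3 of 37 members fell (PSAT1, SHMT2 and XPOT) and 0 rose, where 0.753% of all genes were called lower and 2.21% higher. At an unadjusted p under 0.05 there were 24 members, all lower, where 1410 of the 11548 genes were lower and 1755 higher. The 3 calls rest on all lines being present: without Huh7 or without Hep3B 0 members were called (with 0 and 1 of all genes called), and without MHCC97H 1 was, with 109 of all genes. For the combination against untreated, 23 of 37 members fell and 0 rose, where 15.1% of all genes were called lower and 20.9% higher. This count was 17 without Hep3B (1797 of all genes called) and 22 without MHCC97H (3778), but 0 without Huh7, when 11 of all genes were called. By role, the calls covered 4 of 6 serine and folate enzymes and 3 of 4 enzymes for asparagine, proline and branched-chain amino acids. They also covered 2 of 5 carriers, 2 of 4 stress effectors, 1 of 5 regulators and 11 of 13 tRNA export and synthetase genes. Of promoters with the CARE match, 8 of 11 belonged to members that fell with the combination (median log2-fold change -0.75), and of those without it 11 of 20 (-0.93).

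**Figure D2:**
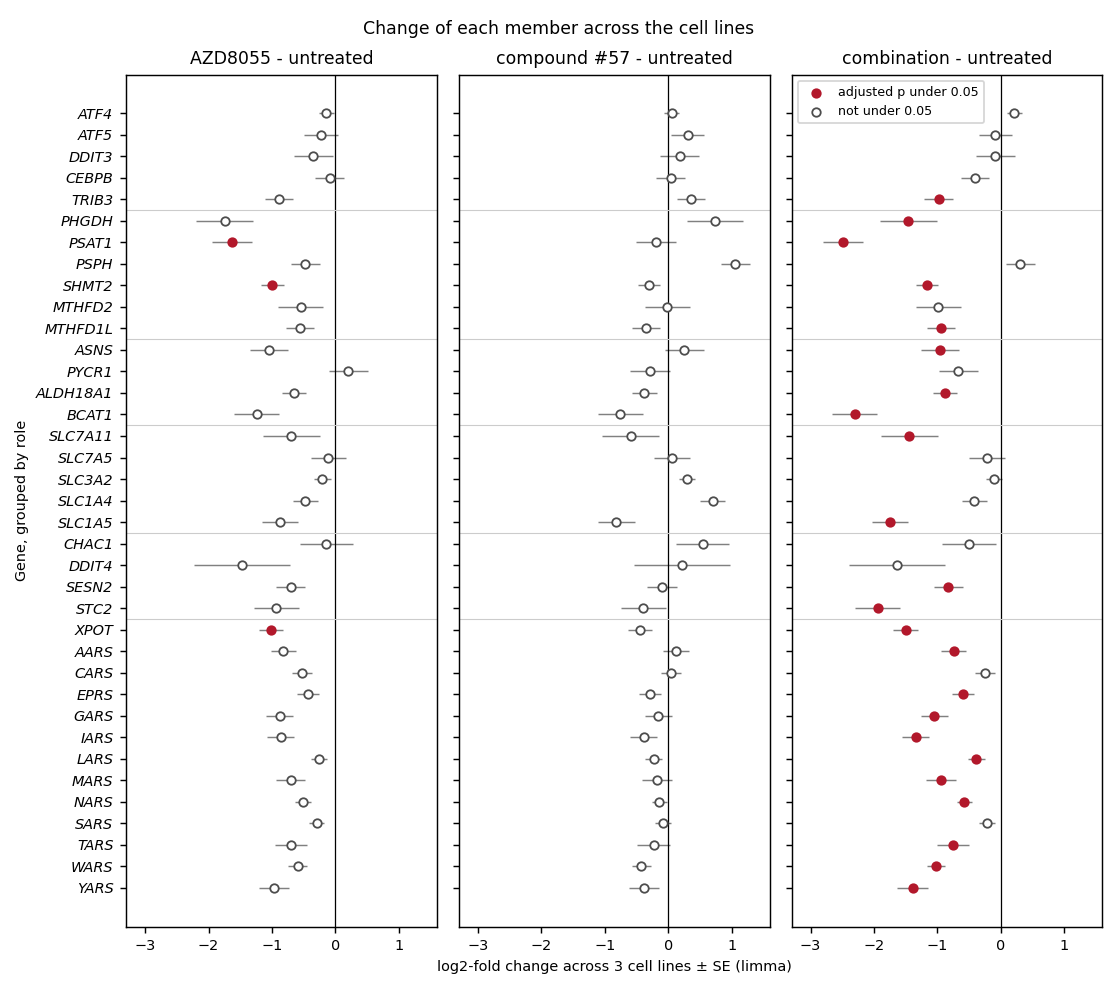
Log2-fold change of each of 37 members across 3 cell lines (points, ± SE from limma, 1 library per line and treatment) for AZD8055, compound #57 and the combination against untreated, with filled points at an adjusted p under 0.05. Filled points number 3, 0 and 23 in the panels, all to the left of 0.

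Serine is made from a glycolytic intermediate by PHGDH, PSAT1 and PSPH in turn, of which PHGDH and PSAT1 fell with the combination and PSPH was not called. In the sentences that follow, the 4 values of a line are untreated, AZD8055, compound #57 and combination. PSAT1, the aminotransferase of the pathway (chr9:78297125-78330093, plus strand, hg38), stood at 351, 195, 250.5 and 84.2 RPM in Hep3B, 168, 39.2, 224 and 25.8 in MHCC97H and 487, 125, 340.2 and 75.05 in Huh7. Both libraries with AZD8055 lay below both without it in every line, and the combination was the lowest of each. PSAT1 fell with AZD8055 (log2-fold change ± SE -1.64 ± 0.32, adjusted p = 0.0382) and with the combination (-2.48 ± 0.32, adjusted p = 0.00211), the largest fitted fall of any member in the combination. PHGDH, which opens the pathway, stood at 85.5, 65.2, 222 and 58.8 RPM in Hep3B, 8.84, 0.91, 13.7 and 1.38 in MHCC97H and 295, 89.8, 343 and 125 in Huh7. The MHCC97H values are 115, 13, 156 and 17 reads, so that the change in that line, -3.14 (-4.23 to -2.44) with AZD8055 (95% Clopper-Pearson interval, counting error only), is less sharply measured than in Huh7 (-1.71 (-1.81 to -1.62)). PHGDH fell with the combination (-1.46 ± 0.45, adjusted p = 0.03), and for AZD8055 alone the value was -1.75 ± 0.45 (adjusted p = 0.0575).

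PSPH, the phosphatase that releases serine, stood at 91.1, 62.2, 261 and 94.7 RPM in Hep3B, 48.3, 40.2, 93.4 and 89.3 in MHCC97H and 153, 100.2, 249.6 and 151 in Huh7. Its highest level in each line was under compound #57, and the combination was near untreated cells in Hep3B and Huh7 and above them in MHCC97H. PSPH was not called against untreated cells in any of these comparisons across lines, with 1.06 ± 0.23, adjusted p = 0.0912 for compound #57 and 0.31 ± 0.23, adjusted p = 0.305 for the combination. Reads of the pseudogene copy PSPHP1 may be split with it, since the counting method was not given.

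The mitochondrial folate branch turns serine into glycine and formate. In Hep3B all 3 of its genes were lowest in the combination, as were MTHFD2 and MTHFD1L in Huh7 and SHMT2 and MTHFD1L in MHCC97H. SHMT2, which splits serine, stood at 282, 199, 215 and 141 RPM in Hep3B, 201, 98.5, 171 and 94.0 in MHCC97H and 424, 155, 348 and 161 in Huh7. It fell with AZD8055 (-0.99 ± 0.18, adjusted p = 0.0337) and with the combination (-1.17 ± 0.18, adjusted p = 0.00301). MTHFD1L, which releases formate, stood at 68.2, 68.9, 49.4 and 47.2 RPM in Hep3B, 49.5, 31.0, 47.9 and 23.3 in MHCC97H and 54.0, 26.4, 37.2 and 23.1 in Huh7. In Hep3B it was near untreated with AZD8055 (0.01) and lower with compound #57 (-0.47), and across lines it fell with the combination (-0.94 ± 0.22, adjusted p = 0.0107). MTHFD2, the dehydrogenase between them, stood at 141, 108, 123 and 86.3 RPM in Hep3B and 109.9, 45.5, 65.7 and 23.1 in Huh7, the change to the combination being -2.24 in Huh7. In MHCC97H it had 0, 0, 1 and 0 reads, and a count of 0 allows up to 0.23 RPM in the untreated library. Its neighbours in the table were read in MHCC97H: MOB1A at 160.2 to 222 RPM and DCTN1 at 137 to 170.1. Such a gap was found for 199 of the 11548 genes (1.72%), which had 3 reads or fewer in all 4 MHCC97H libraries. MTHFD2 was not called with the combination (-0.98 ± 0.35, adjusted p = 0.0535), in a fit that includes those MHCC97H libraries.

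Among the enzymes for asparagine, proline and branched-chain amino acids, BCAT1 and ALDH18A1 were lower with either drug in Hep3B and Huh7, while ASNS was lower with AZD8055 in MHCC97H and Huh7 alone by more than 2-fold. BCAT1, the cytosolic branched-chain aminotransferase (chr12:24810024-24949101, minus strand), stood at 119, 57.2, 46.0 and 20.3 RPM in Hep3B, 8.30, 3.44, 9.31 and 3.4 in MHCC97H and 263, 98.3, 126 and 30.2 in Huh7. In Hep3B and Huh7 each single drug lay below untreated and the combination below each of them, and in MHCC97H the 2 libraries without AZD8055 lay above those with it. BCAT1 fell with the combination (-2.31 ± 0.35, adjusted p = 0.00301) and was -1.24 ± 0.35 with AZD8055 (adjusted p = 0.0719). ASNS, asparagine synthetase (chr7:97851677-97872542, minus strand), stood at 86.0, 76.6, 97.4 and 69.9 RPM in Hep3B, 75.4, 29.4, 120.3 and 31.0 in MHCC97H and 100.64, 32.9, 95.02 and 41.0 in Huh7. Its level under compound #57 was above untreated in MHCC97H (0.67) and near it in Hep3B and Huh7 (0.18 and -0.08), and it fell with the combination (-0.96 ± 0.30, adjusted p = 0.0331). ALDH18A1, the first enzyme of proline synthesis from glutamate, stood at 241, 135, 126 and 110.3 RPM in Hep3B, 88.7, 71.3, 100.62 and 70.5 in MHCC97H and 329, 185, 254 and 146 in Huh7, and fell with the combination (-0.88 ± 0.19, adjusted p = 0.00901). PYCR1, the last enzyme of that route, was at 0, 2, 0 and 0 reads in MHCC97H and at 181, 174, 117 and 90.8 RPM in Hep3B and 116, 76.8, 98.6 and 57.6 in Huh7. MAFG, its nearest neighbour in the table, was at 148 to 185 RPM in MHCC97H. NOTUM, the nearest on the other side, was at 0.18 to 0.85 RPM there, 12.4 to 19.1 in Hep3B and 2.13 to 4.65 in Huh7. PYCR1 was not called (-0.67 ± 0.31, adjusted p = 0.118 for the combination, with the MHCC97H libraries in the fit).

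Of the carriers, the glutamine carrier SLC1A5 was lower with the combination in every line, and the cystine carrier SLC7A11 was over 2-fold lower in Hep3B and Huh7 and -0.08 in MHCC97H. SLC1A5 (chr19:46774883-46788594, minus strand) stood at 228, 154, 109 and 69.9 RPM in Hep3B, 554, 300.3, 545 and 278 in MHCC97H and 104, 46.1, 40.4 and 17.7 in Huh7. The AZD8055 library was below the untreated one in each line, the compound #57 library was over 2-fold below it in Hep3B and Huh7, and the combination was the lowest of each line. It fell with the combination (-1.75 ± 0.29, adjusted p = 0.00352). SLC7A11, the light chain of the cystine-glutamate exchanger, stood at 56.0, 44.8, 24.5 and 19.1 RPM in Hep3B, 714, 758, 731 and 677 in MHCC97H and 125, 34.7, 81.4 and 19.02 in Huh7. The 4 MHCC97H libraries spanned 677 to 758 RPM, while in Huh7 the change to the combination was -2.71. SLC7A11 fell with the combination in the fit (-1.45 ± 0.45, adjusted p = 0.0321), which averages over these lines.
SLC1A4, a carrier of alanine, serine and cysteine, stood at 49.2, 48.3, 90.2 and 49.4 RPM in Hep3B, 31.3, 14.9, 50.1 and 18.5 in MHCC97H and 39.2, 31.1, 57.9 and 27.6 in Huh7. It was highest under compound #57 in each line, and it fell from compound #57 to the combination (-1.12 ± 0.20, adjusted p = 0.0255) without a call against untreated cells. SLC7A5, the light chain of the large neutral amino acid carrier, and SLC3A2, the heavy chain it shares with SLC7A11, were not called in any comparison across lines, with -0.22 ± 0.28 and -0.11 ± 0.13 for the combination against untreated.

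Of the stress effectors, DDIT4 differed over 2-fold in opposite directions between lines in the combination. DDIT4 (REDD1, chr10:72273919-72276036, plus strand), which restrains mTORC1, stood at 91.4, 38.7, 50.6 and 7.78 RPM in Hep3B, 14.7, 9.55, 36.9 and 33.8 in MHCC97H and 21.2, 3.49, 23.9 and 3.44 in Huh7. In Hep3B and Huh7 the combination was far below untreated cells (-3.54 (-3.87 to -3.25) and -2.59 (-3.14 to -2.15), log2-fold change with counting interval), and in MHCC97H it was above them (1.20 (0.95 to 1.46)). The fit across lines gave -1.64 ± 0.75, adjusted p = 0.113 for the combination. STC2, a secreted glycoprotein, stood at 53.0, 50.9, 39.6 and 19.8 RPM in Hep3B, 74.6, 43.7, 64.4 and 27.9 in MHCC97H and 56.1, 14.3, 38.7 and 6.97 in Huh7, and fell with the combination (-1.94 ± 0.35, adjusted p = 0.00459). SESN2, a leucine sensor that acts on mTORC1, stood at 47.4, 37.3, 47.8 and 28.7 RPM in Hep3B, 20.4, 10.1, 13.9 and 7.04 in MHCC97H and 20.4, 11.9, 24.2 and 17.1 in Huh7. It fell with the combination (-0.83 ± 0.23, adjusted p = 0.021), although its Huh7 interval reached 0 (-0.25 (-0.52 to 0.00)). CHAC1, which degrades glutathione, was between 1.46 and 2.32 RPM in MHCC97H and was not called (-0.50 ± 0.42, adjusted p = 0.365 for the combination).

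**Figure D3:**
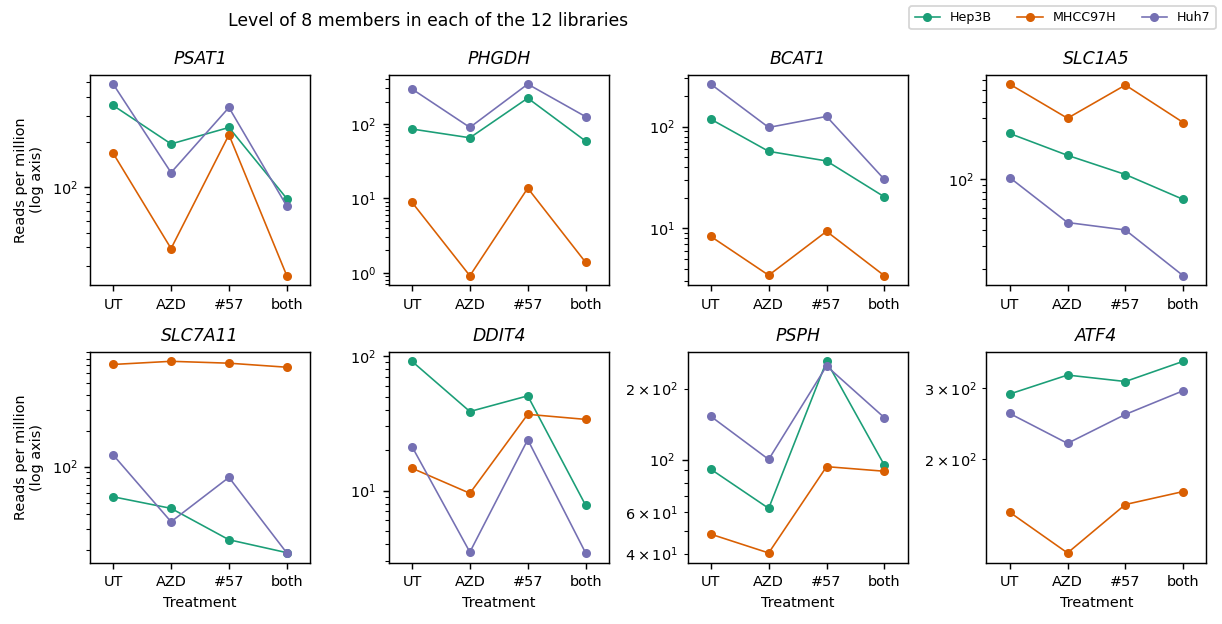
Level of 8 members in each of the 12 libraries (RPM on a log axis) by treatment (UT, untreated; AZD, AZD8055; #57, compound #57; both, combination), with 1 point per library and a line joining each cell line. Each panel has its own axis. PSAT1 has its lowest point under the combination in every line, DDIT4 under the combination is at 33.8 in MHCC97H and 7.78 in Hep3B, SLC7A11 lies between 677 and 758 in MHCC97H, and ATF4 spans 117 to 350 over all lines.

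Among the regulators, the mRNA of ATF4 itself was not called in any comparison across lines. ATF4 (chr22:39519695-39522683, plus strand) stood at 289.8, 323, 311 and 349.6 RPM in Hep3B, 147, 117, 154 and 166 in MHCC97H and 259, 218, 258 and 295 in Huh7. The spread of the 12 libraries was 117 to 350 RPM, and within a line the highest was at most 0.51 on the log2 scale above the lowest. ATF4 was not called, with -0.14 ± 0.12, adjusted p = 0.453 for AZD8055 and 0.21 ± 0.12, adjusted p = 0.183 for the combination, and with the combination it was higher than in untreated cells in each line (0.27 in Hep3B, 0.17 in MHCC97H, 0.19 in Huh7). TRIB3, a pseudokinase induced by ATF4 that feeds back on it, stood at 170.4, 144, 212 and 109 RPM in Hep3B, 214, 73.3, 254 and 98.1 in MHCC97H and 85.4, 46.2, 122 and 37.7 in Huh7. It was highest under compound #57 in each line, and fell with the combination against untreated cells (-0.98 ± 0.23, adjusted p = 0.0106) and against compound #57 (-1.34 ± 0.23, adjusted p = 0.025). DDIT3 (CHOP), ATF5 and CEBPB, which partner or follow ATF4, were at most 76.7 RPM in all libraries. They were not called, with -0.09 ± 0.30, -0.09 ± 0.26 and -0.41 ± 0.23 for the combination. For DDIT3 and ATF5 these fits average lines that moved in opposite directions. From untreated to the combination, DDIT3 went from 57.6 to 28.0 RPM in MHCC97H, 17.7 to 16.2 in Hep3B and 9.34 to 17.6 in Huh7. ATF5 went from 10.3 to 19.5 RPM in Hep3B, 25.8 to 14.6 in Huh7 and 69.15 to 53.6 in MHCC97H. DDIT3 and MARS overlap by 982 bases on opposite strands on chromosome 12. The library preparation kept strand, but whether the counting used it was not given. SHMT2, MARS and DDIT3 lie within 292165 bases there, and 5 of the 37 members are on chromosome 12. AARS, ATF5, SLC1A5, WARS and YARS also overlap another gene of the table on the opposite strand.

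In the tRNA group, 10 of 12 synthetases and XPOT fell with the combination. XPOT, the export receptor for tRNA (chr12:64404392-64451125, plus strand), stood at 322, 182, 189.5 and 115 RPM in Hep3B, 460.4, 215, 496 and 191 in MHCC97H and 318, 146, 198 and 94.0 in Huh7. It fell with AZD8055 (-1.02 ± 0.19, adjusted p = 0.0375) and with the combination (-1.50 ± 0.19, adjusted p = 0.00211). YARS, which charges tyrosine, stood at 160.0, 129, 109 and 75.9 RPM in Hep3B, 186, 77.6, 192 and 67.7 in MHCC97H and 146, 58.0, 94.3 and 46.8 in Huh7, and fell with the combination (-1.39 ± 0.24, adjusted p = 0.00406). IARS, for isoleucine, stood at 422, 314, 273 and 189 RPM in Hep3B, 506, 220.4, 513 and 195 in MHCC97H and 661, 339.6, 448 and 232 in Huh7, and fell with the combination (-1.35 ± 0.21, adjusted p = 0.00332). Each of these 3 genes had its lowest level of the line in the combination. GARS, for glycine, stood at 382, 283, 317 and 237 RPM in Hep3B, 261, 109, 277 and 93.7 in MHCC97H and 189, 97.7, 156 and 95.9 in Huh7, and fell (-1.05 ± 0.21, adjusted p = 0.00669). WARS, for tryptophan, stood at 108, 92.6, 82.8 and 62.8 RPM in Hep3B, 98.9, 51.8, 74.5 and 40.1 in MHCC97H and 91.0, 58.4, 64.8 and 45.8 in Huh7, and fell (-1.02 ± 0.15, adjusted p = 0.0028). MARS, for methionine, stood at 273, 236, 227 and 194 RPM in Hep3B, 231, 101.36, 234 and 82.0 in MHCC97H and 293, 178, 239.6 and 162 in Huh7, and fell (-0.95 ± 0.23, adjusted p = 0.0136). In GARS and MARS the MHCC97H change to the combination was the lowest of the 3 lines (-1.48 and -1.49). The same held for WARS, AARS, TARS, NARS, CARS and SARS, but not for YARS, IARS, EPRS and LARS.
AARS, for alanine, stood at 378, 318, 417 and 276 RPM in Hep3B, 246, 95.5, 285 and 124 in MHCC97H and 481, 266, 484 and 275 in Huh7, and fell (-0.75 ± 0.20, adjusted p = 0.0181). TARS, for threonine, stood at 276, 241, 197 and 204 RPM in Hep3B, 213, 84.9, 222 and 97.5 in MHCC97H and 181, 120.4, 151 and 112 in Huh7, and fell (-0.75 ± 0.25, adjusted p = 0.0431). For both genes the AZD8055 library of MHCC97H was below its combination library. EPRS, for glutamate and proline, stood at 508, 407, 320.5 and 319 RPM in Hep3B, 352, 247, 403 and 243 in MHCC97H and 358, 258, 277 and 235 in Huh7, and fell (-0.60 ± 0.17, adjusted p = 0.0242). NARS, for asparagine, stood at 221, 163, 177 and 152 RPM in Hep3B, 325, 219, 348 and 205 in MHCC97H and 247, 171, 217 and 172 in Huh7, and fell (-0.58 ± 0.12, adjusted p = 0.00842). LARS, for leucine, had the smallest called change, -0.39 ± 0.13 (adjusted p = 0.0431), its levels being 191, 162, 129.8 and 137 RPM in Hep3B, 173, 154, 181 and 139 in MHCC97H and 138, 107, 120.0 and 107 in Huh7. CARS, for cysteine, and SARS, for serine, were not called (-0.25 ± 0.16 and -0.22 ± 0.12), and CARS was higher than untreated in Hep3B (0.19).

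A second model gave each line its own AZD8055 and compound #57 term and took the effects of both drugs as additive, so that any departure from additivity counts as error on 3 residual degrees of freedom. In this model the AZD8055 term was called lower for 8 of 37 members in Hep3B, 25 in MHCC97H and 29 in Huh7, and higher for 0 in each. All genes were called lower for 2.41%, 14.8% and 12.6% and higher for 4.19%, 15.9% and 12.4%. The 8 in Hep3B were PSAT1, PSPH, SHMT2, BCAT1, SLC1A5, DDIT4, XPOT and IARS. The AZD8055 term also draws on the step from compound #57 to the combination, so it is not the change with AZD8055 alone. PSPH in Hep3B went from 91.1 to 62.2 RPM with AZD8055 alone, and from 261 with compound #57 to 94.7 in the combination. For DDIT4 these changes were from 91.4 to 38.7 RPM and from 50.6 to 7.78. Of the 12 synthetases, Hep3B had IARS alone called lower, MHCC97H had all but LARS and Huh7 all but EPRS, LARS and SARS. The AZD8055 term differed between the lines for 10 members (moderated F-test, 5.03% of all genes called): SLC7A11, TARS, MARS, ASNS, GARS, YARS, DDIT4, ATF5, STC2 and DDIT3. For TARS the terms were -0.08 ± 0.12 in Hep3B, -1.26 ± 0.12 in MHCC97H and -0.51 ± 0.12 in Huh7 (adjusted p = 0.0221 for the difference), and for MARS -0.22 ± 0.12, -1.35 ± 0.12 and -0.64 ± 0.12 (adjusted p = 0.0258). For ASNS the Hep3B term, -0.32 ± 0.17, stood apart from -1.65 ± 0.17 in MHCC97H and -1.41 ± 0.17 in Huh7 (adjusted p = 0.0369). For SLC7A11 and STC2 it was the Huh7 term that was lowest, at -1.97 ± 0.11 and -2.21 ± 0.23, against -0.01 ± 0.11 and -0.99 ± 0.23 in MHCC97H.

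**Figure D4:**
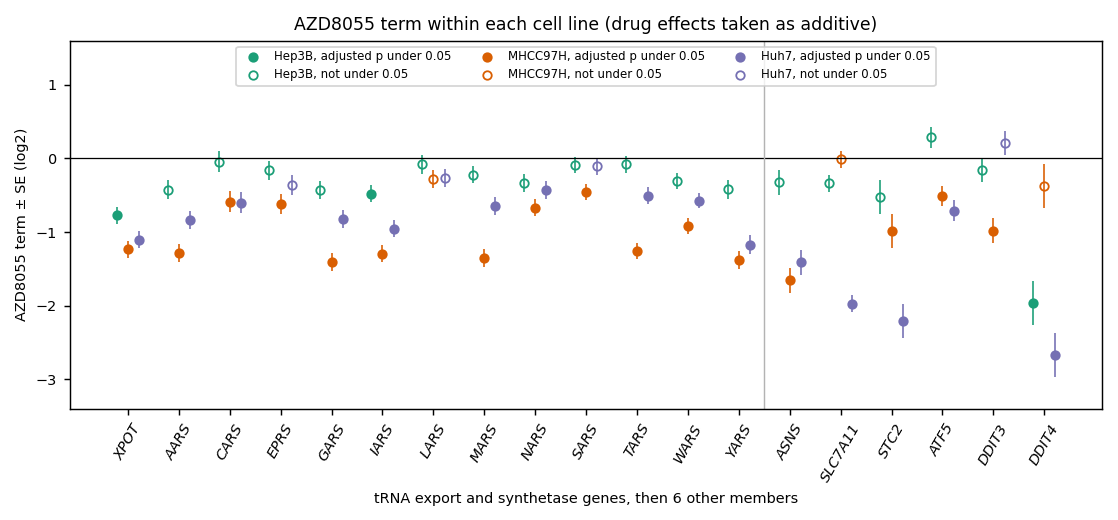
AZD8055 term (log2, points ± SE) in Hep3B, MHCC97H and Huh7 for the 13 tRNA export and synthetase genes and for 6 other members. The term of those 6 differed between lines, and points are filled where the adjusted p is under 0.05. The MHCC97H points lie lowest for TARS, MARS and GARS, and the Huh7 points lowest for SLC7A11, STC2 and DDIT4. The Hep3B points are nearest to 0 for most of the 13 genes.

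With compound #57 alone, 0 members were called across lines (limma, 0.00866% of all genes called, and 0 members with voom). At an unadjusted p under 0.05 there were 6 members (3 higher, 3 lower) and 2501 of the 11548 genes (1566 higher, 935 lower). The median member was below 0 in Hep3B (-0.27) and Huh7 (-0.24) and above it in MHCC97H (0.09), beside 0.01, 0.03 and 0.08 for all genes. Without MHCC97H, 5 members were called, 2 of them higher, where 778 of all 11548 genes were called. In the model with terms for each line, the compound #57 term also draws on the combination libraries, so it is not the change with compound #57 alone. By this term 16 members were lower and 2 higher in Hep3B (13.3% and 15.6% of all genes). In Huh7 5 were lower and 1 higher (3.43% and 5.39%), and in MHCC97H 0 lower and 3 higher (0.736% and 2.75%). In MHCC97H the 3 were PSPH (1.05 ± 0.19), DDIT4 (1.57 ± 0.30) and SLC7A5 (0.68 ± 0.14). In Huh7, BCAT1, SLC7A11, SLC1A5, XPOT and IARS were lower and DDIT3 higher (0.70 ± 0.17), a call that was lost with voom. In Hep3B, the terms of PSPH (1.06 ± 0.19) and ATF5 (0.63 ± 0.14) were higher. The lowest terms there were those of DDIT4 (-1.58 ± 0.30), BCAT1 (-1.43 ± 0.17) and SLC7A11 (-1.21 ± 0.11). DDIT4 in Hep3B went from 91.4 to 50.6 RPM with compound #57 alone, and from 38.7 with AZD8055 to 7.78 in the combination. For PSPH these changes were from 91.1 to 261 RPM and from 62.2 to 94.7. The compound #57 term differed between lines for 5 members (4.90% of all genes): SLC1A5, DDIT4, BCAT1, SLC7A11 and SLC7A5. For SLC1A5 the terms of Hep3B, Huh7 and MHCC97H were -1.10 ± 0.10, -1.37 ± 0.10 and -0.07 ± 0.10 (adjusted p = 0.00715). In MHCC97H the median of all genes in the compound #57 library was 0.109 above that of the untreated library on the log2 scale, more than the median change of the members there.

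Set against compound #57, most members were lower in the combination in each line, the medians of Hep3B, Huh7 and MHCC97H being -0.48, -0.78 and -0.89 (all genes 0.045, 0.01 and 0.02). Across lines 12 of 37 members fell and 0 rose, where 1.57% of all genes were called lower and 2.62% higher. They were PSAT1 (-2.29 ± 0.32), PHGDH (-2.20 ± 0.45), STC2, BCAT1, TRIB3, SLC1A4, XPOT, YARS, IARS, GARS, AARS and SHMT2. This count was 8 without MHCC97H, with 331 of all genes called, and 0 without Huh7 or without Hep3B, with 0 and 1 of all genes called. Set against AZD8055, the combination had medians of -0.35, -0.13 and -0.02 (all genes 0.025, 0.04 and 0.04), and 16 members were lower and 3 higher in all lines, as were 16.3% and 23.7% of all genes. Here limma called 0 members and 0 genes of the table (0%), and 0 members with voom. At an unadjusted p under 0.05 there were 10 members (8 lower, 2 higher) and 1673 of the 11548 genes (599 lower, 1074 higher). The largest fitted differences in that comparison were -1.07 ± 0.35 for BCAT1 and -1.01 ± 0.35 for STC2. In Hep3B and Huh7 the BCAT1 values were -1.49 (-1.71 to -1.28) and -1.70 (-1.88 to -1.53), and in MHCC97H -0.02 (-0.65 to 0.61). PSPH was higher in the combination than with AZD8055 in each line (0.61 in Hep3B, 0.59 in Huh7 and 1.15 in MHCC97H). The interaction of both drugs, the change in the combination beyond the sum of the single changes, was called for 0 members and 0 genes (0%, and 0 members with voom). With no adjustment, 1 member and 178 of the 11548 genes had a p under 0.05.

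Lists of related genes, picked by function but with earlier results of these data known, were read in the same fits. Of 15 other ATF4 pathway genes 14 were in the table, and with AZD8055 2 rose and 2 fell (2.21% and 0.753% of all genes). The phosphatase subunit gene PPP1R15A, which reverses eIF2 phosphorylation, rose (1.31 ± 0.29), while the glycine carrier SLC6A9 fell (-1.80 ± 0.33). With the combination, where 20.9% of all genes rose and 15.1% fell, 2 of the 14 rose and 4 fell, ATF3, a stress-induced factor, reaching 2.56 ± 0.32. Of 11 cytosolic synthetases and scaffold genes not on the list, 8 fell and 1 rose with the combination, against the same shares of all genes, among them FARSB, a subunit of the phenylalanine enzyme (-1.23 ± 0.19), and VARS, for valine (-1.15 ± 0.17), and QARS, for glutamine, named here after its value was seen, rose (0.57 ± 0.14). Their median was -0.52 against -0.75 for the 12 listed synthetases and 0.09 for all genes in the same fit. Of 11 further folate and glycine enzymes, 6 fell and 1 rose with the combination (15.1% and 20.9% of all genes), among them AMT (1.0 ± 0.34) and GCSH (-0.97 ± 0.24), both of the glycine cleavage system.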

How the data were processed

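Polyadenylated RNA of 12 cultures was sequenced after a stranded library preparation, and hg38 is the build named in the submitters' processing notes. The aligner, counting and normalization were not given in the sources used here. The authors deposited 1 table of log2 values, found to be log2(reads scaled to 10000000 per library + 1) with 0 reads written as 0.001. Whole reads were recovered from it (tolerance 0.1). Levels are RPM.

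Treatments were tested with limma 3.58.1 (R 4.3.3, empirical Bayes with trend) on the log2 values (pseudocount 1) of all 12 libraries, in a model of treatment plus cell line with 6 residual degrees of freedom. The cell line, as labelled, is the pairing. Deviations from the mean of each treatment correlated at 0.87 to 0.96 for libraries of the same line and at -0.74 to 0.10 for different lines. Taking out that mean pushes the correlations between lines below 0, so these values describe the libraries and do not test the pairing. P-values were Benjamini-Hochberg adjusted over 11548 genes. A second fit gave each line its own drug terms, with 3 residual degrees of freedom. In the first fit the replicates were cell lines, and differences in level between them were taken out. Its p-values measure how far the response to treatment varied between the 3 lines, pooled over all treatments. The p-values of the second fit rest on departure from additivity within the lines, and no replicate libraries stand behind them. Within a line, 2 libraries were compared with 95% Clopper-Pearson intervals, which cover counting error only, and 3 reads were taken as the floor. Scripts were tested on simulated data. Coordinates came from GENCODE on hg38.

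The members and lists were chosen with earlier results of these data known. Every member is named. Values in every library are given at least for members called in any comparison across lines, or changed 4-fold in any line with AZD8055 or the combination, and at most 3 called genes of each other list are named. A gene that this rule would name is not reported here. Alternatives were voom on whole reads, 10 added in place of 1, a filter on low values, centring, no block, the compared libraries alone and each line left out.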

Additional observations from a re-analysis of the deposited data

Results flagged for a closer look

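The AZD8055 term differed between the 3 cell lines for 10 of 37 members in the moderated F-test of limma (drug effects taken as additive, adjusted over all genes). The adjusted p was 0.00749 for SLC7A11, 0.0221 for TARS, 0.0258 for MARS, 0.0369 for ASNS, 0.0392 for GARS and 0.0405 for YARS. It was 0.0436 for DDIT4, 0.0462 for ATF5, 0.0479 for STC2 and 0.05 for DDIT3, the last being 0.04999 before rounding. The terms below are given for Hep3B, then MHCC97H, then Huh7. In SLC7A11 they were -0.34 ± 0.11, -0.01 ± 0.11 and -1.97 ± 0.11. In YARS they were -0.42 ± 0.13, -1.38 ± 0.13 and -1.17 ± 0.13, and in GARS -0.42 ± 0.12, -1.41 ± 0.12 and -0.83 ± 0.12.

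The compound #57 term differed between the lines for 5 members, with adjusted p of 0.00715 for SLC1A5, 0.0178 for DDIT4, 0.0187 for BCAT1, 0.0187 for SLC7A11 and 0.0295 for SLC7A5. In BCAT1 the terms were -1.43 ± 0.17, 0.07 ± 0.17 and -1.38 ± 0.17. In SLC7A5 they were -0.30 ± 0.14, 0.68 ± 0.14 and -0.46 ± 0.14. MHCC97H was exposed for 24 h and the other lines for 48 h, so line and time cannot be told apart.

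DDIT4 moved in opposite directions between lines in the combination. Against untreated cells its log2-fold change was 1.20 in MHCC97H, where Hep3B had -3.54 and Huh7 -2.59. Against AZD8055 it was 1.81 in MHCC97H and -2.30 in Hep3B. With 1 library per condition these differences were not tested.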

How the results depend on the processing

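Members called were recounted with each choice changed. For AZD8055 against untreated the 3 calls became 9 with library medians centred, 0 without the replicate block (cell line), 0 with the compared libraries alone, and 0 to 1 with a line left out. For compound #57 against untreated, leaving out a line gave 0 to 5. For the combination against untreated the 23 calls became 0 without the replicate block and 0 to 22 with a line left out, and against compound #57 the 12 became 0 without the replicate block and 0 to 8 with a line left out. Without the block, differences in level between lines count as error. The cause of the other changes was not tested. With the mean in place of the median, members stood at -0.17 (Hep3B, compound #57 against untreated), at -0.73, -0.81 and -1.13 (Hep3B, MHCC97H and Huh7, combination against untreated) and at -0.95 (Huh7, combination against compound #57). Centring moved library medians by up to 0.109, in MHCC97H with compound #57, where the median member became -0.02. Of the members that changed sign there, XPOT (-0.003), GARS (-0.02) and NARS (-0.011) had counting intervals above 0 before centring. The other recounts (10 added to the values, a stricter filter, voom) stayed within 1.5 times. In the fits with terms for each line the total members called per term also did, but for compound #57 in Huh7 the 5 lower calls became 8 with centring and the 1 higher call (DDIT3) became 0 with voom. MTHFD2 and PYCR1, at 0 to 2 reads in MHCC97H, give no fold change there.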

Other observations

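Genes that control eIF2, the factor whose phosphorylation lets ATF4 mRNA be translated, were read in the combination against untreated cells, where 20.9% of all genes rose and 15.1% fell. Of 13 such genes 3 rose and 4 fell (limma, adjusted over all genes), the share that rose being near that of all genes, with EIF2B3, a subunit of the exchange factor for eIF2, at -1.40 ± 0.22 and EIF2S1, the phosphorylated subunit, at -0.81 ± 0.16 on the log2 scale. IMPACT, an inhibitor of the kinase GCN2, rose (0.65 ± 0.19). Of 17 mitochondrial tRNA synthetases 1 rose and 3 fell, the share that fell again near that of all genes, with MARS2 being at -1.34 ± 0.26 and EARS2 at -0.90 ± 0.21. WARS2 was the 1 that rose (0.68 ± 0.20).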
